A study of Mus musculus with 6 samples.

Results

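The stanniocalcins of the mouse are 2 genes, Stc1 and Stc2, taken by Ensembl identifier from 57180 genes of a count table, and they were chosen by their counts in the very libraries compared here. The 3 gld libraries came from calvaria-derived cells of B6Smn.C3-Faslgld/J mice, in which both copies of Fasl, the gene of Fas ligand, carry the gld mutation, and are titled FasL KO in the labels. The 3 wt libraries came from calvaria-derived cells of C57BL/6 mice, which carry no gld allele. The gld mutation is a point mutation present in every cell of the animal. Such cells are isolated from the roof of the skull, and both groups grew in a bone-inducing medium containing ascorbate plus β-glycerophosphate. The protocol describes cultures continued for 72 h from day 14 of differentiation, and neither group here received recombinant Fas ligand; treated gld cultures are not analysed here. No age of the animals was found in the labels, and nothing in them tells whether replicate libraries stem from different animals or dishes, so each p-value below reflects the spread of these libraries alone, and that spread may be technical. The study asked which components of the extracellular matrix differ in osteoblasts without functional Fas ligand.

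Stanniocalcins are secreted glycoproteins that form disulfide-linked dimers. The first was found as a calcium-lowering hormone of bony fish, and in mammals they act mostly near the cells that make them. Both mammalian proteins inhibit the pappalysins, metalloproteases that cut insulin-like growth factor (IGF) binding proteins and so free IGF. STC1 is made by osteoblasts and chondrocytes, where it has been tied to phosphate uptake, and a transgene that raises either stanniocalcin makes mice small. The Stc2 gene is known as a target of the PERK and ATF4 branch of the stress response of the endoplasmic reticulum (ER).

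Libraries were made with QuantSeq, which reads the 3′ end of polyadenylated transcripts and gives about 1 tag per molecule whatever the length of the transcript, so counts depend on how the end of a gene is annotated. Stc1 (ENSMUSG00000014813) lies on chromosome 14, 69029238 to 69041804, plus strand of GRCm38, with 1 annotated transcript in 4 exons, and its coding part of 741 bases ends in the last exon, after which 3301 bases of 3′ UTR follow. Stc2 (ENSMUSG00000020303) lies on chromosome 11, 31357307 to 31370074, minus strand, with 5 annotated transcripts. In both genes the last 300 exonic bases of the principal transcript lie in 1 transcript only. None of the 25-base stretches of these ends occurs in a transcript of another gene in GENCODE M21, nor in the other stanniocalcin. These 300 bases lie beyond the end that RefSeq gives either gene, so neither check covers tags read at the RefSeq ends. An antisense gene, Gm41192, overlaps the start of Stc1, far from its 3′ end, and was listed at 0 counts in all 6 libraries.

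The annotated ends are shown because the measurement reads them. RefSeq ends Stc1 403 bases before the GENCODE end and Stc2 2134 bases before it. Each line gives the 30 transcript bases around the hexamer AATAAA or ATTAAA, the usual polyadenylation signal, that lies nearest the GENCODE end, with the hexamer in capitals, on the transcript's strand alone, from the GENCODE transcripts.
Stc1, chr14:69041356-69041385, plus strand: aataataataatAATAAAgtgttaacgttt
Stc2, chr11:31357307-31357336, minus strand: tagttcaagcattAATAAAggttttaaata
In Stc1 this hexamer starts 437 bases before the GENCODE end and 34 before the RefSeq end, and in Stc2 it starts 17 bases before the GENCODE end. Of the principal transcripts of 21744 protein-coding genes, 71.6% hold either hexamer in their last 50 bases, as Stc2 does and Stc1 does not. Which end the cells used cannot be read from a count per gene.

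Depth ran from 4048258 to 5245546 counts in gld and from 2011173 to 3105322 in wt. Fasl itself was at 0 counts in every library, so its transcript checks neither genotype label. Of 8692 genes with enough counts to test, 17.4% passed at an adjusted p of 0.05 when gld was set against wt by the quasi-likelihood test of edgeR, 9.74% higher and 7.69% lower in gld, and the median log2 fold change of all of them was 0.02. Scaling by library size alone put that median at −0.14. Stc1 is among the genes tested and Stc2 is not, because its counts were too low.

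Stc1 was among the most counted genes of the wt libraries and was far lower in the gld libraries. It had 932, 802 and 1114 counts in gld 1 to 3, against 9284, 16693 and 13901 in wt 1 to 3, although the gld libraries were the deeper ones. Levels in CPM, counts scaled for depth and for library composition by the TMM method, were 231, 209.7 and 227 in gld and 4327, 5234 and 4233 in wt. The groups were far from overlapping: the lowest wt library held 18.4 times the level of the highest gld library. Groups did not overlap in 33.3% of all genes tested, and in 15.2% they did so with gld the lower. Group means were 222 ± 11.1 CPM in gld and 4598 ± 553 CPM in wt (SD, n = 3 each). The fitted log2 fold change, gld minus wt, was −4.37 ± 0.12 (SE), a level 20.7-fold lower in gld. Since the choice of the genes used these counts, the values are a description and carry no test.

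**Figure D1:**
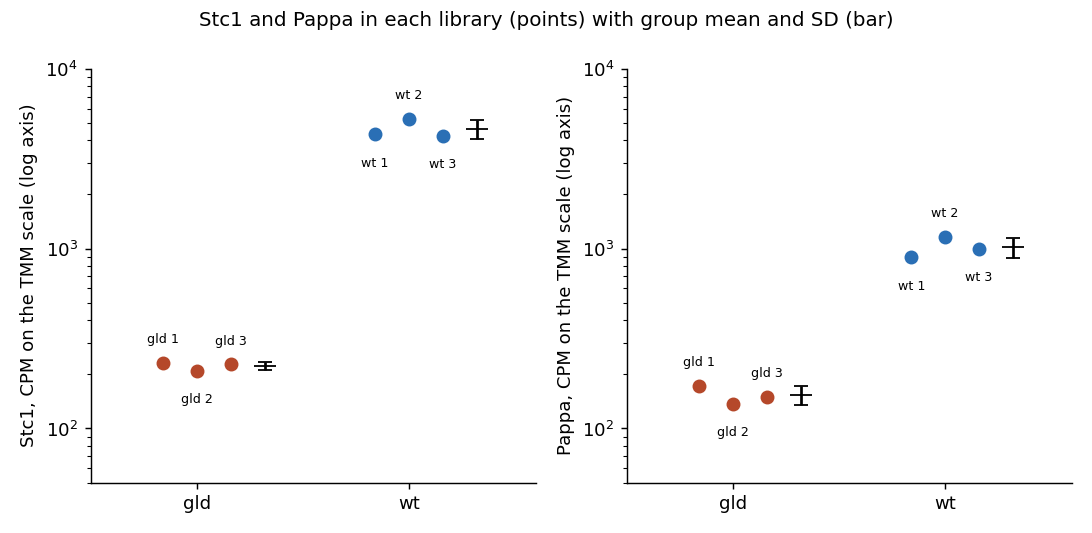
Levels of Stc1 (left) and of the pappalysin gene Pappa (right) in CPM on a log axis, 1 point per library, gld left of wt, with the group mean and SD as a bar beside the points. Stc1 sits between 209.7 and 231 CPM in gld and between 4233 and 5234 CPM in wt, and Pappa between 137 and 173 CPM in gld and between 897 and 1156 CPM in wt.

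As a share of all counts, Stc1 took 0.0211% ± 0.0012 in gld and 0.485% ± 0.046 in wt (SD, n = 3 each). Ranked by count within a library, it was gene 714, 799 and 750 in gld 1 to 3, and 27, 19 and 27 in wt 1 to 3. Genes in general use, such as Atf4, are listed at 0 counts, so these ranks hold among counted genes and not among all transcripts of the cells. Of 114 genes at 1000 CPM or more in wt, a level set for this description, 3 had a larger decrease in gld than Stc1: Ptgs2, the inducible cyclooxygenase gene, Crabp1, which encodes a retinoic acid binding protein, and Il1rl1, the interleukin-33 receptor gene. Over all 8692 genes, whatever their level, Stc1 had the 54th largest fitted decrease. In the plot of group means it lies below the line of equal levels, at the right edge where few genes are found so far from it.

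**Figure D2:**
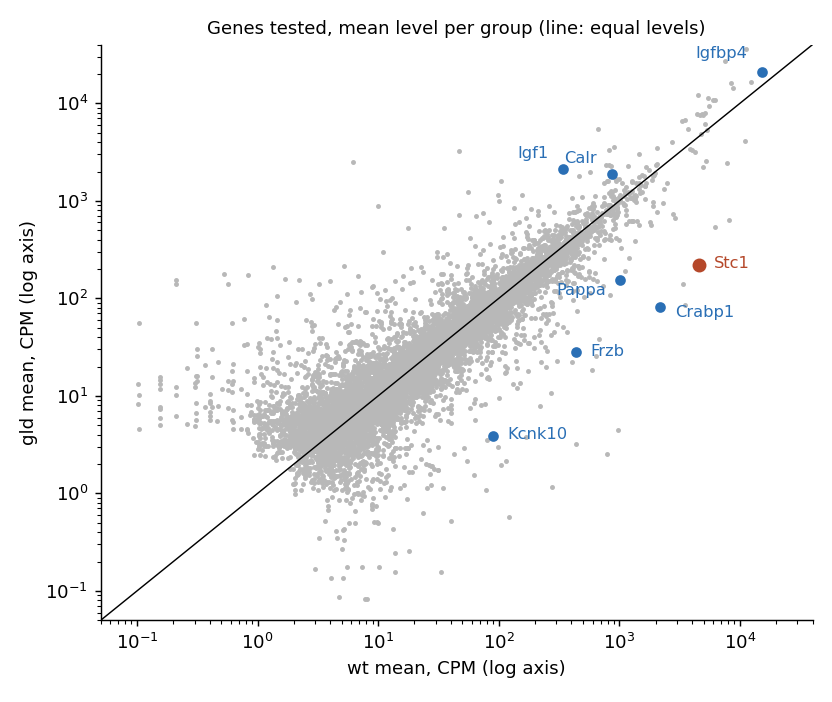
Mean level in gld (vertical, CPM, log axis) against wt (horizontal, CPM, log axis) for the 8586 tested genes with counts in both groups; another 106 had none in 1 group and are left out. The line marks equal levels, Stc1 is in red at 222 CPM in gld and 4598 CPM in wt, and blue points are other genes named in the text.

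Within a group Stc1 varied little beside the difference between the groups. The coefficient of variation of its CPM was 5.00% in gld, where counting error alone gives 3.25%, and 12.02% in wt, where counting error gives 0.867%. The highest library exceeded the lowest 1.1-fold in gld and 1.24-fold in wt, with wt 2 the highest of that group. The biological coefficient of variation fitted by edgeR was 11.2% for Stc1 and 32.2% for the median gene, and 1.88% of tested genes had a lower dispersion. Both comparisons take in tested genes of any level, and Stc1 was not set against genes counted as often as it was. Leaving out each library in turn gave log2 fold changes between −4.43 and −4.26.

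Stc2 was barely counted. It had 0 counts in each of the 3 gld libraries, and 0, 11 and 0 in wt 1 to 3. The only signal was 3.45 CPM in wt 2, so no fold is given: without that library both groups are at 0. The limit that 0 counts set, taken as 3 counts over a group, was 0.235 CPM for gld. For wt 3 counts would be 0.348 CPM, but that limit does not apply, as the 11 counts gave wt a mean of 1.15 CPM. The gld limit concerns counts and not the transcript itself: genes in general use, such as Atf4, are also listed at 0 in this table. As the labels mention no molecular identifiers, limits and counting errors cover sampling of reads only.

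Stanniocalcins inhibit pappalysins, and most genes of the pappalysin and IGF axis with enough counts differed between the groups. Of 12 genes listed, 9 were tested: 4 rose, 4 fell and Pappa2 did not pass, beside 17.4% called among all genes. Their median log2 fold change was −0.28, which is the value of Pappa2 alone and describes no shift of the list, against 0.02 for all genes tested. Pappa, the gene of pappalysin-1, which cuts IGF binding protein 4, had 173, 137 and 149.9 CPM in gld and 897, 1156 and 996 CPM in wt. Its groups did not overlap and gld was the lower, as held for 15.2% of all genes tested. Its log2 level fell by 2.73 ± 0.14 (edgeR adjusted p = 5.85e-09). Pappa2, the gene of the second pappalysin, which cuts IGF binding proteins 3 and 5, had 43.5 ± 0.41 CPM in gld and 52.3 ± 26.2 CPM in wt (SD, n = 3 each). Its groups overlapped, and its log2 fold change was −0.28 ± 0.33 (edgeR adjusted p = 0.676).

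Genes of the ligand and its receptors moved apart. Changes given here and for the lists that follow are log2 fold changes, gld minus wt, with their SE. Igf1, the ligand, had 2239, 2276 and 1851 CPM in gld and 336, 426 and 268 CPM in wt, and rose by 2.63 ± 0.16 in log2 units (edgeR adjusted p = 2.83e-08). Several annotated Igf1 transcripts share the counted end. Igf1r, which encodes the signalling receptor, had 622, 546 and 532 CPM in gld and 1272, 1818 and 1267 CPM in wt, and fell by 1.36 ± 0.14 (edgeR adjusted p = 7.73e-06). All gld libraries were thus above wt for the ligand and below wt for the receptor, while groups did not overlap in 33.3% of all genes tested. Igf2r, the receptor that clears IGF-II, fell by 0.54 ± 0.14 (edgeR adjusted p = 0.0119). Igfbp4, the binding protein gene cut by pappalysin-1, was by far the most counted of the list, at 20750 ± 544 CPM in gld and 15340 ± 567 CPM in wt (SD, n = 3 each), and rose by 0.44 ± 0.07 (edgeR adjusted p = 0.000277). Igfbp5 rose by 0.97 ± 0.19, Igfbp3 rose by 1.51 ± 0.39 and Igfbp6, which binds mainly IGF-II, fell by 1.92 ± 0.43 (largest edgeR adjusted p = 0.0139, for Igfbp3). The call of Igfbp3 was lost without gld 2 (adjusted p = 0.0532) or gld 3 (0.0637). The gene of another pappalysin inhibitor, Prg2, had 1 count in all, and Igfbp2 was listed at 0.

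**Figure D3:**
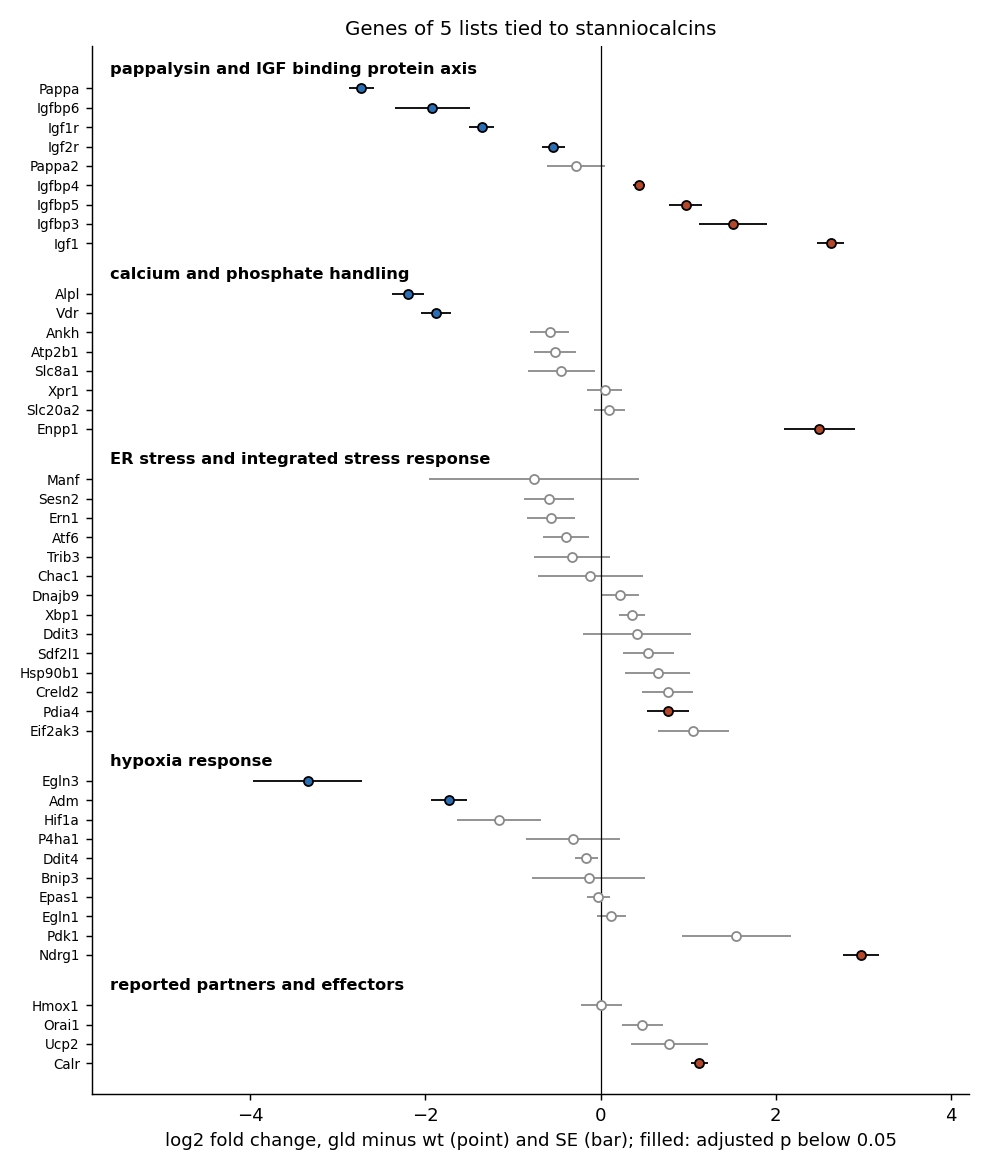
Log2 fold change, gld minus wt, with its SE, for tested genes of 5 lists tied to stanniocalcins; filled points passed an adjusted p of 0.05, red higher and blue lower in gld. Phex is left out because it had no count in wt. In the pappalysin and IGF list 8 of 9 points are filled, and in the ER stress list 1 of 14.

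Calcium and phosphate handling is the process through which stanniocalcins were first studied. Of 22 genes listed, 9 were tested, of which 2 rose, 2 fell and 5 did not pass, beside 17.4% called among all genes (9.74% higher, 7.69% lower). The median log2 fold change was −0.45, which is the value of Slc8a1, a listed gene that did not pass (edgeR adjusted p = 0.528). Alpl, the phosphatase of mineralizing osteoblasts, had 41.8, 49.2 and 52.5 CPM in gld and 178, 257 and 225 CPM in wt, and fell by 2.20 ± 0.18 (edgeR adjusted p = 7.97e-07). Vdr, the vitamin D receptor gene, fell by 1.88 ± 0.17 to 66.6 ± 12.04 CPM in gld, against 245 ± 25.6 CPM in wt (SD, n = 3 each; edgeR adjusted p = 2.08e-06). Both were lower in each gld library than in any wt library, as held for 15.2% of all genes tested. Enpp1, whose product makes the mineralization inhibitor pyrophosphate, rose by 2.5 ± 0.40 (edgeR adjusted p = 0.000418). Phex, an endopeptidase gene of phosphate regulation, had 35, 26 and 30 counts in gld and 0 in each wt library. It was at least 20.7-fold higher in gld, taking 3 counts over the wt group as the limit (edgeR adjusted p = 0.00349). Phex passed the count filter through gld alone, so it could be called only as higher. Several of its transcripts share the counted end. The phosphate carrier gene Slc20a2 had 179 ± 45.9 CPM in gld and 167 ± 8.59 CPM in wt (SD, n = 3 each), a log2 fold change of 0.10 ± 0.18 (edgeR adjusted p = 0.799), and the phosphate exporter gene Xpr1 had 0.05 ± 0.20 (edgeR adjusted p = 0.93). Slc20a1, the other phosphate carrier of bone cells, and the calcium sensor gene Casr were among 10 genes listed at 0. Without gld 3 the genes that fell numbered 4, with the pyrophosphate transporter gene Ankh (adjusted p = 0.00446) and the calcium pump gene Atp2b1 (adjusted p = 0.021) added. Ankh also passed as lower with scaling by library size alone (0.029), without the low-count filter (0.0315) and with the replicate block (0.0481).

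Genes of the ER stress response, of which Stc2 is a known target, mostly did not pass the test, as held for most of all genes tested. Of 20 listed, 14 were tested: 1 rose, none fell and 13 did not pass, beside 17.4% of all genes, with a median log2 fold change of 0.29. Pdia4, an ER chaperone gene, rose by 0.77 ± 0.24 (edgeR adjusted p = 0.0407), with 102, 106 and 102 CPM in gld and 53.1, 86.2 and 41.7 CPM in wt. That call was lost without gld 1, gld 2, gld 3, wt 1 or wt 3 (adjusted p from 0.086 to 0.179) and with scaling by library size alone (0.0838). Leaving out 1 library also added calls: Eif2ak3, the PERK gene, was higher without wt 2 (adjusted p = 0.0378), Creld2 was higher without wt 3 (0.0455) and Sesn2 was lower without gld 3 (0.0241). The stress factor gene Ddit3 had 0.41 ± 0.62 and Trib3 had −0.32 ± 0.44 on the log2 scale (smaller edgeR adjusted p = 0.723, for Trib3). Atf4 and Asns were listed at 0, and their ends are shared by several transcripts, as is that of the well counted Igf1.

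Hypoxia raises STC1 in many cell types, and some tested genes of that response passed here, in both directions. Of 18 listed, 10 were tested: 1 rose, 2 fell and 7 did not pass, beside 17.4% called among all genes, with a median log2 fold change of −0.15. Ndrg1, a stress-induced differentiation gene, had 286, 293 and 222 CPM in gld and 37.8, 40.1 and 24.7 CPM in wt, and rose by 2.97 ± 0.21 (edgeR adjusted p = 1.3e-07). Adm, the gene of the vasodilator peptide adrenomedullin, had 106, 186 and 178 CPM in gld and 474, 657 and 435 CPM in wt, and fell by 1.73 ± 0.21 (edgeR adjusted p = 2.74e-05). Egln3, the gene of an oxygen-sensing prolyl hydroxylase, had 11, 2 and 28 counts in gld and 74, 58 and 136 in wt. It passed the count filter through wt alone and could be called only as lower, so the share of all genes is no fair measure for it. It fell by 3.34 ± 0.62 (edgeR adjusted p = 0.00135), or by 4.25 without gld 3. Adm and Egln3 were therefore low in the libraries in which Stc1 was low, and Ndrg1 was high in them. Groups did not overlap in 33.3% of all genes tested. Epas1, a hypoxia-inducible factor gene, had −0.02 ± 0.13 and the sensor gene Egln1 had 0.12 ± 0.17 (smaller edgeR adjusted p = 0.724). Hif1a had −1.16 ± 0.48 (edgeR adjusted p = 0.124) and passed without wt 1 (0.043); several of its transcripts share the counted end. Pdk1, a kinase gene of the glycolytic switch, had 1.55 ± 0.62 (edgeR adjusted p = 0.113) and passed without wt 2 (0.00254), without the low-count filter (0.0223) and in limma-voom (0.0368). Vegfa and Slc2a1 were listed at 0.

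Among 7 genes of proteins reported as stanniocalcin partners or effectors, 4 were tested and 1 rose, beside 9.74% higher among all genes, with a median log2 fold change of 0.63. A single call among 4 genes is too few to describe the list. Calr, the gene of the ER chaperone calreticulin, which binds STC1, had 1859, 1907 and 1896 CPM in gld and 834, 864 and 892 CPM in wt, and rose by 1.13 ± 0.09 (edgeR adjusted p = 7.48e-07). Ucp2, a mitochondrial uncoupling protein gene induced by STC1 in macrophages, had 37.0 ± 24.5 CPM in gld and 21.4 ± 5.24 CPM in wt (SD, n = 3 each), with overlapping groups and a log2 fold change of 0.79 ± 0.44 (edgeR adjusted p = 0.277). Hmox1, whose product binds STC2, had 0.01 ± 0.24 (edgeR adjusted p = 0.99), and Orai1, of the store-operated calcium channel, had 0.48 ± 0.23 (edgeR adjusted p = 0.208).

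The genes whose pattern over the 6 libraries was most like that of Stc1 were found by the root mean square difference in log2 CPM (prior count 2), each gene centred on its own mean. Of 8691 other genes, 113 lay within 1 log2 unit of Stc1 and 25 within 0.5. Nearest among named genes were Trdc, a T cell receptor constant segment, at 0.19, Kcnk10, a potassium leak channel, at 0.22, Frzb, a secreted Wnt antagonist, at 0.23, Pcsk1, a prohormone convertase, at 0.27, and Crabp1 at 0.29. Frzb had 118, 96 and 147 counts in gld and 897, 1453 and 1455 in wt, and Crabp1 had 400, 298 and 346 in gld and 4944, 6221 and 7629 in wt. Kcnk10 had 16, 18 and 15 counts in gld and 166, 377 and 241 in wt, with wt 2 the highest in CPM, as for Stc1. Trdc and Pcsk1 had no count in gld and 17, 35 and 39 and 14, 30 and 36 counts in wt 1 to 3, so their place near Stc1 depends on the prior count. All 5 share with Stc1 the difference between the same 3 gld and 3 wt libraries.

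**Figure D4:**
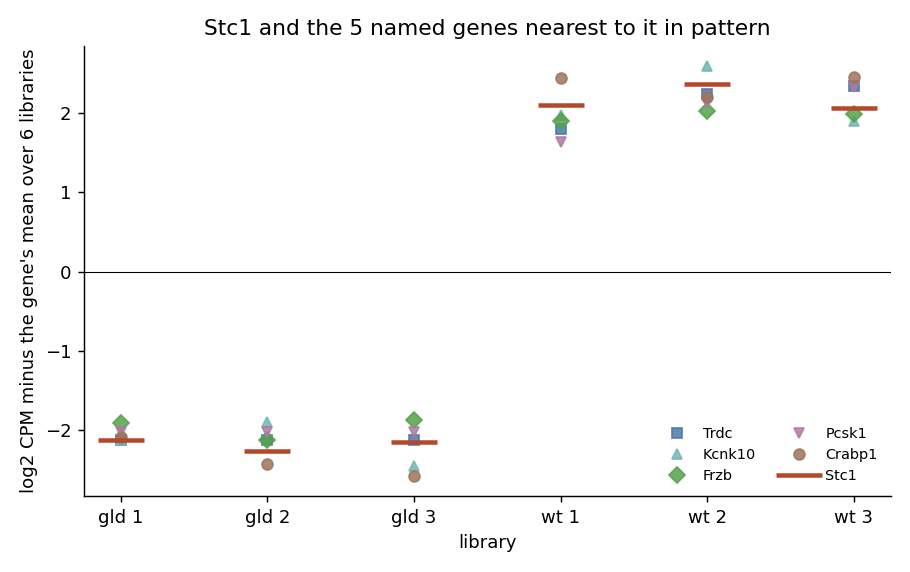
Log2 CPM minus each gene's own mean (vertical) in the 6 libraries (horizontal) for Stc1 (red bars) and the 5 named genes nearest to it. Stc1 lies between −2.26 and −2.13 in gld and between 2.07 and 2.37 in wt, and the other genes lie close to it in every library.

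Few genes beside the stanniocalcins on their chromosomes had enough counts to test, and none of the 5 that did passed, beside 17.4% called among all genes, so the count says little about these regions. Of 27 annotated genes that start within 500 kb of Stc1, 12 were at 0 and 3 were tested, none of them upstream. The closest, the pseudogene Rps2-ps5, had 46.4 ± 18.7 CPM in gld and 47.4 ± 14.3 CPM in wt (SD, n = 3 each), a log2 fold change of −0.04 ± 0.32 (edgeR adjusted p = 0.97). Gm21451, another pseudogene, had −1.23 ± 0.45 (edgeR adjusted p = 0.0808) and passed with scaling by library size alone (0.0428), and Gm16867, a protein-coding gene model, had −1.51 ± 0.71 (edgeR adjusted p = 0.184). Of 12 genes around Stc2, Bod1, a gene of chromosome orientation in mitosis, had 0.07 ± 0.14 (edgeR adjusted p = 0.83) and Erlec1, an ER lectin gene, had 0.40 ± 0.23 (edgeR adjusted p = 0.306).

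Markers of several cell types differed between the same groups as Stc1, and in bulk RNA fewer cells of a type and less RNA per cell cannot be told apart. Of 11 osteoblast markers, 6 were tested and 4 rose, while Alpl fell, beside 9.74% higher and 7.69% lower among all genes. The 4 were Col1a1, Col1a2 and the little counted Ibsp and Dmp1, and the call of Ibsp was lost in limma-voom and without gld 1, that of Dmp1 in most alternatives. Runx2, also tested, did not pass, with a log2 fold change of 0.35 ± 0.77 (edgeR adjusted p = 0.843). Sparc had 0, 0 and 23 counts in gld and 0, 23 and 5 in wt. Several other markers had few counts, nearly all of them in gld. Ibsp had 41, 24 and 32 counts in gld and 1, 2 and 0 in wt, and Dmp1 had 23, 24 and 24 in gld and 2, 0 and 0 in wt. Both thus passed the count filter through gld alone. Bglap2 had 16, 3 and 22 counts in gld and Sp7 had 0, 16 and 4, and both had 0 in each wt library. Spp1 had 4 counts and Bglap 1, all in gld, and the end of Spp1 is shared by several transcripts. As for Stc2, such low counts do not show that a transcript was absent. Of 14 macrophage markers, 8 were tested: 7 rose and Cd14 fell, beside 9.74% higher and 7.69% lower among all genes. Cd68, C1qa, C1qb, C1qc, Laptm5 and Mrc1 had at most 8 counts in any wt library. They passed the count filter through gld alone, so that share is no fair measure for them. The list summed to 2223, 3586 and 6242 CPM in gld, mostly Lyz2 (1767, 2917 and 4944). In wt it summed to 279, 429 and 253 CPM, mostly Cd14 (276, 305 and 235). Csf1r, Adgre1, Tyrobp, Fcer1g and Ctss were at 0. The ends of all of these but Csf1r are largely shared by several transcripts. Here and in the lists below, 0 counts do not show that a transcript was absent. In limma-voom Cd68, C1qa and Mrc1 did not pass (adjusted p from 0.0685 to 0.0716). All 4 tested of 6 smooth muscle and myofibroblast markers fell, beside 7.69% lower among all genes, with a summed level of 3176 to 3336 CPM in gld and 6728 to 7460 CPM in wt. All 5 tested of 9 chondrocyte markers rose, beside 9.74% higher among all genes. Acan and Matn3 had no count in wt, and Col9a2 and Col11a2 had at most 14 in any wt library. These genes passed the count filter through gld alone, so the share of all genes is no fair measure for them. Sox9 was well counted in both groups, at 781 CPM in gld and 213 CPM in wt. The list summed to 1045 to 1101 CPM in gld and 210.2 to 222 CPM in wt, and Col9a1 was at 0. Of 6 adipocyte markers only Lpl was tested, and it fell, beside 7.69% lower among all genes. It had 127, 126 and 90.8 CPM in gld and 472, 674 and 562 CPM in wt, nearly all of the sum of the list. Fabp4 had 6, 8 and 0 counts in gld and 0, 0 and 1 in wt, and Adipoq had 1 count, in gld 2. Pparg, Plin1 and Cidec were at 0, and the ends of Pparg and Cidec are shared by several transcripts. The endothelial markers Pecam1, Cdh5, Tek, Emcn and Tie1 were at 0, and all of these but Cdh5 have ends shared by several transcripts. The 7 genes of the endothelial list summed to 4.45 to 15.6 CPM in gld and 0.932 to 5.18 CPM in wt. The part of these cell types in the level of Stc1 was not tested.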

How the data were processed

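The deposited values were whole-number counts by Ensembl identifier with no normalization, for 3 gld and 3 wt libraries. Per the series' design text, QuantSeq 3′ FWD reads (single-end, 75 nt) were trimmed with Cutadapt and aligned with STAR. Trim Galore, DESeq2, FastQC and the build mm10 appear in the submitters' processing notes. For the read counter, strandedness and gene models: not given in the sources used here. Of 57180 rows with an identifier, 51883 matched GENCODE M21 (GRCm38), and 1 row without an identifier held 0 counts.

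Genes were kept by filterByExpr (about 10 counts in 3 libraries, 15 in total), scaled by TMM and tested with edgeR 4.0.16 (R 4.3.3), quasi-likelihood test, gld against wt, no covariate, Benjamini-Hochberg over all 8692 genes, threshold 0.05. SE is the absolute log2 fold change over the square root of F. The fit was tested on simulated data. Alternatives used DESeq2 1.42.0 and limma 3.58.1 (voom).

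The members, lists and rules were chosen with earlier results of these data known. Named are up to 4 called members of each list by adjusted p (2 where none was called), the 5 named genes nearest to Stc1 (none for Stc2, which was not tested) and the closest tested neighbours; other list members were named after their values were seen.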

Additional observations from a re-analysis of the deposited data

How the results depend on the processing

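The log2 fold change of Stc1 lay between −4.43 and −4.26 without each library in turn and was −4.52 scaled by library size alone, −4.36 with the replicate block and −4.37 in DESeq2. The labels do not say that equal numbers pair libraries, and same-numbered libraries did not deviate together (correlations from −0.0231 to −0.015); with the replicate block 1359 genes passed instead of 1515. Over all genes, 1224 to 1424 passed without 1 library, and library size alone gave 720 higher and 976 lower against 847 and 668. Without 1 library the ER stress list had 0 to 2 higher and 0 to 1 lower, the calcium list 2 to 4 lower, and the hypoxia list 1 to 2 higher. Scaled by library size alone the ER stress list had 0 higher and 1 neighbour of Stc1 was called. The hypoxia list had 2 higher without the low-count filter and in limma-voom. Of the 5 genes nearest to Stc1, 3 were shared with a prior count of 0.5 and 0 with Pearson correlation, which ignores the size of a difference. For the 13 list genes named by the rule (the called ones with the smallest adjusted p), 150 of 156 values kept direction and call, and the other 6 were Pdia4. Other list genes in the text were less stable: Igfbp3 lost its call under some settings, and Ankh, Atp2b1, Pdk1, Hif1a, Eif2ak3, Creld2 and Sesn2 gained one. Low counts limit Stc2, Egln3 and Phex, and Stc2 had too few counts to be compared.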
